A study of Sus scrofa with 14 samples.

Results

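The nuclei described here were taken from a single-nucleus RNA survey of the pig mammary gland with a gate drawn for B cells and plasma cells. A nucleus was chosen when it held at least 300 genes, UMIs in at least 2 of the 5 markers BANK1, MS4A1, PAX5, CD79B and JCHAIN, and 0 UMIs over the 7 genes EPCAM, COL1A1, PTPRB, RGS5, CD163, VSIG4 and CD3E. A UMI, or unique molecular identifier, stands for 1 captured RNA molecule. Of 127926 nuclei with at least 300 genes, 1052 met the rule. They are called gated nuclei below and not B or plasma cells, because the rule accepts 1 UMI per marker. Nuclei outside the rule also held these markers. MS4A1, IRF4 and MZB1, genes of B or plasma cells, had a UMI in few gated nuclei, but a low share does not decide the cell type. At this depth a gene without a UMI may still be expressed.

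Frozen mammary tissue came from 10 multiparous sows, with 1 library from each sow and 2 sows at each of 5 stages. The stages were day 90 of gestation (G90), lactation days 0 and 20 (L0 and L20), and 2 and 7 days post natural involution (PI2 and PI7). All were untreated animals, and the libraries of a stage are called replicates 1 and 2. The tissue was whole gland with no sorting, so epithelial, stromal, fat, vascular and immune nuclei were captured together.

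B cells recognise antigen through a surface immunoglobulin, whose signal passes through kinases such as SYK and LYN, and they present antigen on MHC class II molecules. Plasma cells are their descendants, which shut off much of that programme, enlarge the secretory pathway and release antibody. In the mammary gland, plasma cells that have homed in toward the chemokine CCL28 secrete IgA joined by the J chain (JCHAIN), and the epithelial receptor PIGR carries it into milk.

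Total UMIs ranged from 18962138 to 53165191 per library, and 9400 to 18694 nuclei per library held at least 300 genes. The median nucleus held 1857 UMIs, and the median gated nucleus 1788. A barcode that also occurred in another library was held by 76 gated nuclei (7.22%), against 6.43% of all barcodes. As possible doublets, 64 gated nuclei were marked, and in most glands the mark was set at the top 6% of nuclei by score. Without marked nuclei, 988 of 1052 gated nuclei and 120709 of 127926 nuclei remained, which are similar shares. PI7 replicate 1 stood apart, with 416 gated nuclei or 39.5% of the total, so pooled values that rest on it are also given without it or as medians over glands. Intervals are exact Clopper-Pearson intervals at 95% and cover counting error only.

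The values that chose the nuclei were small. BANK1, an adaptor of B cell receptor signalling, had UMIs in 822 gated nuclei, JCHAIN in 879, and PAX5, a transcription factor that sets B cell identity, in 414. CD79B, the signalling partner of surface immunoglobulin, was found in 26. Exactly 2 markers were met by 1015 gated nuclei, 3 markers by 37 and all 4 usable markers by 0. A single UMI of each of 2 markers, the least the rule accepts, was the basis for 442 gated nuclei (42.0%). The highest counts in 1 nucleus were 34 UMIs of JCHAIN, 24 of BANK1, 7 of PAX5 and 3 of CD79B.

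MS4A1, which encodes the B cell surface protein CD20, carried no symbol in the deposited gene tables and was matched through the reference annotation, so the rule ran on the other 4 markers. It is therefore a measure that the choice of nuclei did not use. MS4A1 had 31 UMIs in 9 of the 1052 gated nuclei (0.856%), of which 13 UMIs lay in G90 replicate 1 and 18 in PI7 replicate 1. It was at 0 in the gated nuclei of the other 8 glands. Among all other nuclei 0.0583% held an MS4A1 UMI.

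In the RefSeq annotation of Sscrofa11.1, BANK1 (ENSSSCG00000022361) lies on chromosome 8 from 118814352 to 119114973 and spans 300622 bases, and PAX5 (ENSSSCG00000036086) on chromosome 1 from 237574938 to 237785454 spans 210517. JCHAIN (ENSSSCG00000035379) on chromosome 8 from 67439405 to 67448628 spans 9224 bases. MS4A1 (ENSSSCG00000021812) on chromosome 2 from 11216238 to 11229060 spans 12823 bases, and CD79B (ENSSSCG00000017283) on chromosome 12 from 15052966 to 15056441 spans 3476.

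Just outside the rule stood 13055 nuclei with 1 marker and none of the 7 excluded genes. A further 2002 nuclei met 2 markers but held an excluded gene, so the exclusion removed more 2-marker nuclei than it kept. Of the 3054 nuclei with 2 markers, 28.6% held CD163 and 21.0% VSIG4, both receptors of tissue macrophages. EPCAM, of epithelial cells, was in 19.6% and COL1A1, a fibroblast collagen, in 19.2%. The endothelial gene PTPRB was in 9.23%, the T cell gene CD3E in 4.88% and the mural cell gene RGS5 in 3.99%. The gene minimum mattered little, since the gated nucleus with the fewest genes had 333 and only 1 nucleus met the other conditions with fewer than 300.

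Gate markers were also found in nuclei that held an excluded gene (plot of marker shares by cell type). JCHAIN had a UMI in 15.2% of all nuclei. It was in 18.5% of nuclei with an EPCAM UMI (interval 18.0 to 18.9), 18.9% of those with COL1A1, 18.8% with PTPRB, 16.8% with CD3E and 26.0% with RGS5. Each of these groups was set by a UMI of 1 gene only, and the groups were not matched for depth. The part of free RNA in their JCHAIN shares was not tested. The median depth was 2863 UMIs in EPCAM-positive nuclei and 1788 in gated nuclei.

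**Figure D1:**
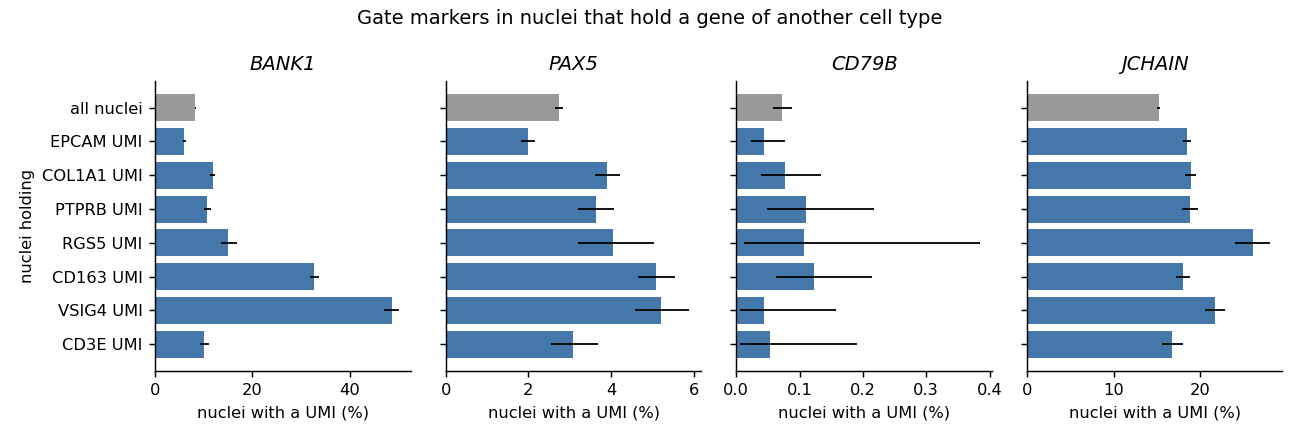
Share of nuclei with at least 1 UMI of BANK1, PAX5, CD79B or JCHAIN (x axes, %, each panel with its own scale starting at 0) among all nuclei and among nuclei that hold a UMI of each excluded gene, pooled over 10 glands, with 95% exact intervals. JCHAIN lies between 16.8% and 26.0% in every group with an excluded gene, and BANK1 reaches 32.7% in CD163-positive and 48.6% in VSIG4-positive nuclei.

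BANK1 had another distribution. It was in 8.26% of all nuclei and 5.998% of EPCAM-positive ones, but in 32.7% of CD163-positive nuclei (31.7 to 33.6) and 48.6% of VSIG4-positive nuclei (47.2 to 50.1). Pooled over glands, a BANK1 UMI was thus more frequent in macrophage-marked nuclei than in T cell-marked nuclei, where it was in 10.1%. BANK1 ranged from 2.49% of all nuclei in L0 replicate 2 to 16.8% in PI7 replicate 1 and 16.9% in L20 replicate 2. The part of gland and depth in these pooled shares was not tested. PAX5 was in 2.74% of all nuclei and 1.99% of EPCAM-positive nuclei, and CD79B in 0.0719% of all nuclei.

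Among the 71214 nuclei without an excluded gene, each marker was read with and without another. JCHAIN was in 17.1% of nuclei with a BANK1 UMI and 13.2% of those without, and within glands it was higher with BANK1 in 8 of 10 (medians 13.8% and 12.5%). It was in 13.9% of nuclei with a PAX5 UMI and 13.4% of those without, and higher with PAX5 in 5 of 10 glands. PAX5 was in 5.04% of BANK1-positive nuclei (4.37 to 5.78) and 2.36% of BANK1-negative ones (2.24 to 2.47) over all glands pooled. Within glands it was higher with BANK1 in 6 of 10, with 7.98% against 6.39% in L20 replicate 2 and 7.13% against 5.72% in PI7 replicate 1, and lower in 4, with 0.314% against 1.25% in L0 replicate 1. Of 49 CD79B-positive nuclei, 13 (26.5%) held BANK1 against 5.36% of the others, and 6 (12.2%) held PAX5 against 2.49%. Within glands, on few CD79B-positive nuclei each, BANK1 was higher with CD79B in 7 and lower in 3. PAX5 was higher with CD79B in 3 and lower in 7.

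The label was checked against further B cell genes. A list of 26 B cell identity genes had 23 in the files, of which 22 had a UMI in gated nuclei. Levels are in CPM, the UMIs of the genes per 1e6 UMIs of the nuclei. The summed level was 1905 CPM in gated nuclei, 1398 in all other nuclei, 1791 in T-like nuclei and 1287 in macrophage-like nuclei, pooled over glands. The medians over glands were 1689, 1219, 1883 and 1436 CPM, so by this measure T-like nuclei were above gated nuclei. T-like nuclei held at least 2 of CD3E, CD2, CD247 and BCL11B, and macrophage-like nuclei at least 2 of CD163, VSIG4, CSF1R, MSR1 and MRC1, both without BANK1, PAX5, CD79B, JCHAIN, EPCAM, COL1A1, PTPRB and RGS5. T-like nuclei were also without CD163 and VSIG4, and macrophage-like nuclei without CD3E. At least 2 of the identity genes were in 53.4% of gated nuclei, 38.4% of T-like nuclei, 43.7% of macrophage-like nuclei and 29.6% of nuclei with none of the markers and none of the excluded genes, at median depths of 1788, 1197, 1568 and 1516 UMIs. The receptor signalling list stood at 2378 CPM in gated nuclei and 1157 CPM in all other nuclei, but at 3898 CPM in T-like and 3136 CPM in macrophage-like nuclei. In gated nuclei without PI7 replicate 1 it was at 1920 CPM. Most of the B cell identity level came from genes that other cell types also use, such as EBF1 and MEF2C. Genes more restricted to B cells were rare: CD22, an inhibitory receptor, was in 3.14% of gated nuclei and 1.91% of all others. BLK, a B cell kinase, was in 1.62% of gated and 3.38% of T-like nuclei, and TNFRSF13C, the receptor for the survival factor BAFF, was at 0 in gated nuclei. CD79A was among the list genes not matched in the files. MS4A1, as above, was in 0.856%.

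At least 2 of the plasma cell list genes were in 556 gated nuclei (52.9%) and in 41.8% of nuclei with no marker. Ranked by fold over all other nuclei, among genes in at least 5% of gated nuclei, the leading genes were SLC15A2, a peptide transporter, at 93.1 against 13.7 CPM (6.82-fold) and IRF4, a transcription factor of plasma cells, at 47.8 against 8.20 CPM (5.83-fold). Even so, IRF4 was in 6.08% of gated nuclei. MZB1, a chaperone of antibody assembly, was in 3.90%, POU2AF1, a co-activator of immunoglobulin genes, in 3.99%, and TNFRSF17, the plasma cell receptor BCMA, in 2.09%, against 0.642%, 0.609% and 0.359% of all other nuclei. These genes were chosen for this ranking on the same nuclei, and no test is given. No gene with an immunoglobulin symbol could be matched in the files, so antibody class is not analysed here.

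Genes of other cell types were present too. At least 2 genes of a list of 10 macrophage genes were in 166 gated nuclei (15.8%) and in 3.29% of the nuclei with no marker and no excluded gene. The summed level of that list had gland medians of 259 CPM in gated nuclei and 184 CPM in nuclei with no marker. At least 2 of 13 T and NK cell genes were in 95 (9.03%) and in 4.11%. Their summed level was 286 CPM in gated nuclei pooled, 161 CPM without PI7 replicate 1 and 201 CPM in nuclei with no marker, and by gland medians (124 against 147 CPM) gated nuclei were lower. At least 2 of 9 epithelial genes were in 401 (38.1%), a lower share than the 59.8% of the nuclei with no marker. CSF1R, the receptor that keeps macrophages alive, was in 14.0% of gated nuclei, 51.5% of macrophage-like nuclei, for which it was a gate gene, and 5.98% of all other nuclei. It was in 8.18% of the gated nuclei outside PI7 replicate 1. CSN2, which encodes beta-casein, was in 15.4% of gated and 28.2% of all other nuclei. The part of free RNA and of mixed barcodes in these shares was not tested.

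The number of JCHAIN UMIs divided the gated nuclei sharply for plasma cell genes. Of the 879 JCHAIN-positive gated nuclei, 525 held 1 JCHAIN UMI, 163 held 2, and 191 held 3 or more. IRF4 was in 1.52% of nuclei with 1 JCHAIN UMI, 3.07% with 2 and 25.1% with 3 or more. In the 173 nuclei with no JCHAIN its share was 1.73%, about that of nuclei with 1 JCHAIN UMI.

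Several further genes, picked with their values known, were also more frequent at 3 or more JCHAIN UMIs. From 1 to at least 3 JCHAIN UMIs, the share of nuclei went from 0.762% to 16.8% for MZB1, from 1.52% to 14.1% for POU2AF1 and from 0.571% to 8.38% for TNFRSF17. It went from 3.24% to 34.0% for SLC15A2 and from 5.90% to 23.6% for TENT5C, which stabilises immunoglobulin messages. TXNDC5, a disulphide isomerase of the endoplasmic reticulum, went from 5.14% to 27.7%. These nuclei were not deeper, with a median of 1539 UMIs against 1886 for those with 1 JCHAIN UMI. Without PI7 replicate 1, IRF4 went from 1.51% of 332 nuclei to 30.4% of 102, MZB1 from 0.904% to 20.6% and SLC15A2 from 3.61% to 38.2%.

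**Figure D2:**
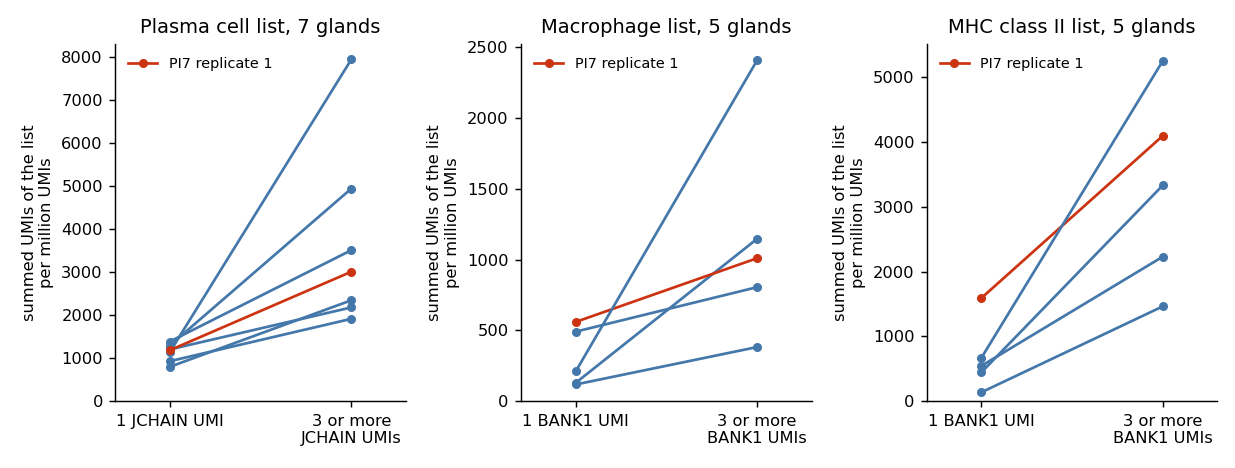
Summed level of the plasma cell list, the macrophage list and the MHC class II list (y axes, CPM) in gated nuclei with 1 and with at least 3 UMIs of the marker named on the x axis; each line is 1 gland with at least 5 nuclei of each kind, PI7 replicate 1 in red. All 7 glands of the JCHAIN panel and all 5 of each BANK1 panel are higher at 3 or more UMIs.

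Summed over the 26 plasma cell genes in the files, the level was higher in nuclei with at least 3 JCHAIN UMIs in 7 of 7 glands that had at least 5 nuclei of each kind. The gland values ran from 803 to 1389 CPM (median 1188) with 1 JCHAIN UMI and from 1916 to 7937 CPM (median 3009) with 3 or more, so the ranges did not overlap. The nuclei with at least 3 JCHAIN UMIs make up 191 of the 1052 gated nuclei.

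Genes of myeloid cells and antigen presentation were more frequent at higher BANK1 UMIs. From 1 BANK1 UMI (531 nuclei) to 3 or more (150 nuclei), the share went from 22.03% to 62.7% for ZEB2, a transcription factor of myeloid and other immune cells, and from 10.4% to 36.7% for CSF1R. The MHC class II gene HLA-DRA went from 18.1% to 53.3%, and CD74, its invariant chain, from 39.5% to 72.7%. MEF2C, used by B cells and macrophages alike, went from 26.2% to 56.7%, and it was also more frequent with more JCHAIN UMIs, from 22.7% at 1 to 49.2% at 3 or more. MS4A1 went from 2 to 5 nuclei, or from 0.377% to 3.33%. Without PI7 replicate 1, ZEB2 went from 15.3% of 333 nuclei to 60.0% of 80, CSF1R from 4.80% to 33.8% and HLA-DRA from 8.71% to 41.3%. Depth moved with this split, with a median of 1732 UMIs at 1 BANK1 UMI and 2280 at 3 or more, and its part was not tested.

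In all 5 glands with enough nuclei, both the macrophage and the MHC class II lists were higher relative to depth at 3 or more BANK1 UMIs. The macrophage list went from a median of 211 to 1010 CPM and the MHC class II list from 548 to 3331 CPM. The B cell identity list was also higher in 5 of 5 glands, from a median of 1558 to 2525 CPM. Pooled over glands the B cell identity list went from 1638 to 2656 CPM. Of this, MEF2C, which macrophages also use, went from 241 to 719 CPM, and EBF1 from 274 to 425 CPM. So nuclei with the most BANK1 had more of all 3 lists, and a large part of the rise in the B cell identity list was MEF2C.

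Few nuclei held several PAX5 UMIs. Of 414 PAX5-positive gated nuclei, 341 held 1 UMI and 27 held 3 or more. IRF4 and MZB1 were in 0 of those 27 nuclei (exact interval up to 12.8%), and MS4A1 was in 2 of them (7.41%). The B cell identity list went from a gland median of 2099 CPM with 1 PAX5 UMI to 4990 CPM with 3 or more, higher in 2 of the 3 glands with at least 5 nuclei of each kind, and from 2038 to 3531 CPM pooled. How these relations differ between PAX5, BANK1 and JCHAIN was not tested.

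The rule can be met by different pairs of markers, and the pairs differed in what else they held (plot of list levels by marker pair). Nuclei with CD79B were set apart first. BANK1 with JCHAIN and no PAX5 accounted for 618 gated nuclei (58.7%), and PAX5 with JCHAIN and no BANK1 for 217 (20.6%). BANK1 with PAX5, with or without JCHAIN, accounted for 191 (18.2%), and CD79B with any other marker for 26 (2.47%). The counts were 367, 131, 116 and 22 of 636 without PI7 replicate 1. The most frequent pair thus joined JCHAIN, found in all groups of nuclei with an excluded gene, and BANK1. Pooled over glands, BANK1 was found most often in macrophage-marked nuclei.

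Nuclei with BANK1 and JCHAIN had the most MHC class II among the JCHAIN pairs, with a summed level of 1398 CPM against 496 CPM for PAX5 with JCHAIN when pooled. PI7 replicate 1 gave much of this level. The medians over glands with at least 10 such nuclei were 662 CPM (10 glands) and 330 CPM (6 glands), and the pooled levels without PI7 replicate 1 were 798 and 292 CPM. HLA-DRA was in 27.2% and CSF1R in 18.3% of them, against 11.98% and 4.61% of nuclei with PAX5 and JCHAIN. Without PI7 replicate 1, HLA-DRA was in 15.8% against 6.87% and CSF1R in 11.2% against 0.763%. MZB1 was in 5.50% and IRF4 in 6.63%.

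Nuclei with PAX5 and JCHAIN had the highest adipocyte level of the pairs, at 646 CPM over 4 genes pooled, against 266 CPM in all other nuclei, and 891 CPM without PI7 replicate 1. Its median over 6 glands was 198 CPM, beside 201 CPM over 4 glands for BANK1 with PAX5. The fat droplet coat gene PLIN1 (50.2 against 12.4 CPM) and the adipokine ADIPOQ (144 against 38.5 CPM) were among the leading genes by fold. ADIPOQ in gated nuclei came mainly from 2 glands, L20 replicate 2 at 347 CPM and PI2 replicate 1 at 500 CPM, and was at 8.12 CPM or less in the other 8. PI2 replicate 1 held only 1 nucleus with PAX5 and JCHAIN. In gated nuclei with 1 PAX5 UMI, of any pair, the adipocyte list had 258 UMIs in L20 replicate 2. The next highest gland, G90 replicate 1, had 39, so this level came mainly from L20 replicate 2. B cell identity was at 2056 CPM pooled, but its median over 6 glands was 1114 CPM (460 to 4690), against 1695 CPM for BANK1 with JCHAIN, 2091 CPM for BANK1 with PAX5 and 1219 CPM in all other nuclei. A large part of the pooled level was EBF1 at 882 CPM, a gene that adipocyte and stromal nuclei also use and that was at 456 CPM in all other nuclei.

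Nuclei with BANK1 and PAX5, with or without JCHAIN, had the highest B cell receptor signalling level of the 3 large pairs. It was at 3298 CPM over 17 genes, against 2374 for BANK1 with JCHAIN and 1360 for PAX5 with JCHAIN. These levels were 2980, 1759 and 1186 CPM without PI7 replicate 1. SYK was at 233 CPM and MS4A1 at 44.9 CPM, from 5 of the 191 nuclei. The macrophage list was also highest here, at 662 CPM against 497 and 244 CPM. The plasma cell list was lowest, at 1156 CPM, against 1241 CPM in all other nuclei. With that gland left out the macrophage list was at 618, 349 and 135 CPM, and the plasma cell list of these nuclei at 1237 CPM.

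The 26 nuclei with CD79B were few but had the highest levels of both B cell lists. Their B cell identity level was 4344 CPM and their receptor signalling level 5663 CPM, and 3597 and 5800 CPM over the 22 nuclei outside PI7 replicate 1. SYK was in 7 of 26 and at 1046 CPM against 49.1 CPM in other nuclei, and IKZF3, a transcription factor of lymphocytes, was in 7 of 26 and at 637 against 35.1 CPM. SLC15A2 was in 9 of 26 and TENT5C in 7. MS4A1 was in 2 of the 26 (7.69%). These nuclei came from 9 glands, and no gland had 10 of them, so no test across glands was made.

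**Figure D3:**
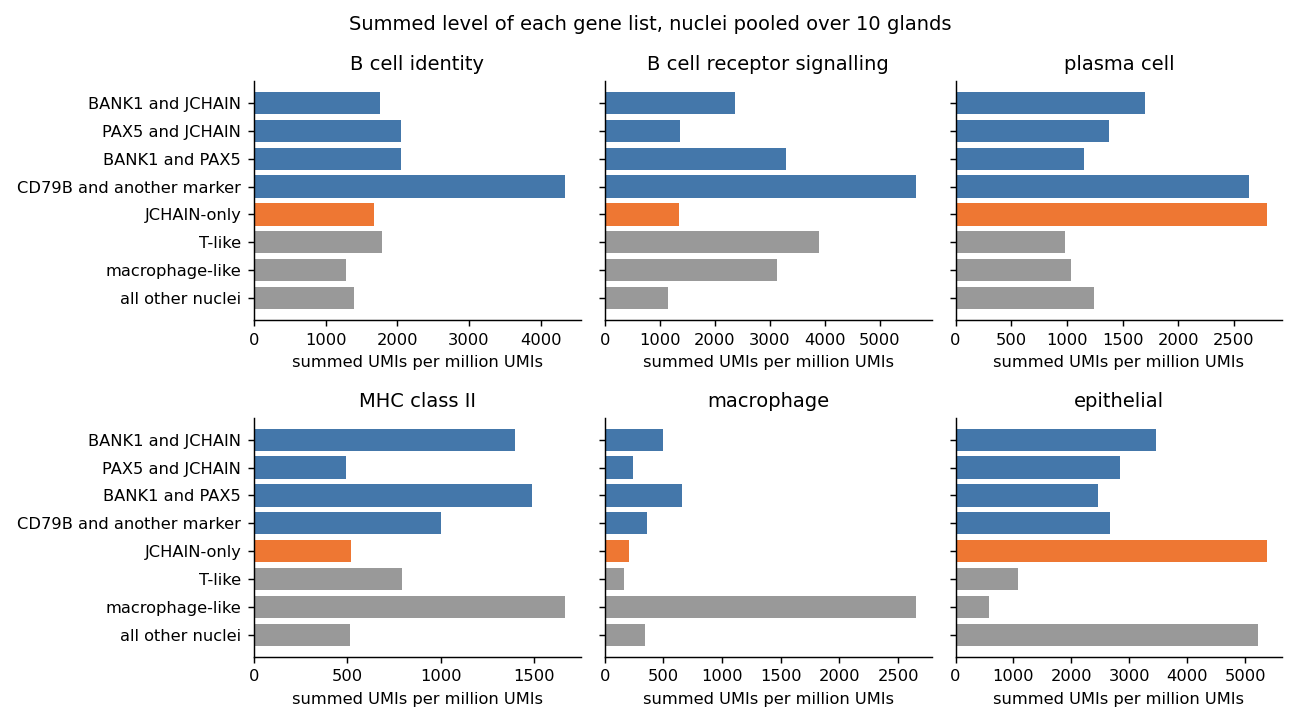
Summed level of 6 gene lists (x axes, CPM, starting at 0) in nuclei pooled over 10 glands, for the 4 marker pairs of gated nuclei (blue), nuclei with at least 3 JCHAIN UMIs and no BANK1, PAX5 or CD79B (orange), and T-like, macrophage-like and all other nuclei (grey). Nuclei with CD79B reach 4344 for B cell identity, and the JCHAIN-only nuclei reach 2796 for the plasma cell list.

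The rule left out nuclei that had JCHAIN alone of the 4 usable markers. There were 1326 nuclei with at least 3 JCHAIN UMIs, no BANK1, PAX5 or CD79B and none of the excluded genes, more than the 1052 gated nuclei. MS4A1 was not part of this choice. Their plasma cell list stood at 2796 CPM, against 1574 CPM in gated nuclei and 1241 CPM in all other nuclei. IRF4 was in 16.5% of them, MZB1 in 11.01%, POU2AF1 in 10.0%, SLC15A2 in 22.9% and TXNDC5 in 25.1%, at a median depth of 1606 UMIs. These shares exceed those of all gated nuclei, which did not need 3 JCHAIN UMIs. In the 191 gated nuclei with as many JCHAIN UMIs the values were higher than in JCHAIN-only nuclei, with IRF4 in 25.1%, MZB1 in 16.8%, POU2AF1 in 14.1%, SLC15A2 in 34.0% and TXNDC5 in 27.7%, and the plasma cell list at 3497 CPM. These differences were not tested. By fold over other nuclei IRF4 (22.6-fold), POU2AF1 (20.3-fold) and MZB1 (18.3-fold) were among their 4 leading genes. Epithelial transcripts were also high, at 5371 CPM over 9 genes against 5226 CPM in all other nuclei.

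Gated nuclei were then compared with T-like and macrophage-like nuclei of the same glands. UMIs were summed per gland and class, and edgeR's quasi-likelihood test was run with the gland as a block over 9 glands. L20 replicate 1 was left out because it had 9 T-like nuclei. The 12 genes of the rule and the genes of the other gates were left out of the calls. A gene was called at an adjusted p under 0.05 and an absolute log2 fold change over 1. With the gland as a block, p-values measure how the difference between classes varied from sow to sow. In sums over nuclei, fewer cells of a type and less RNA per cell cannot be told apart.

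Against T-like nuclei, 914 of 3996 genes were called, which is 22.9%, with 537 higher and 377 lower in gated nuclei. DESeq2 called 950 (23.8%). MEF2C had the largest rise among called genes with a symbol that rose in every gland. Its lowest, median and highest gland values were 32.7, 334 and 478 CPM in gated nuclei and 0, 22.1 and 110 CPM in T-like nuclei, for a log2 fold change of 2.65 (SE 0.27, adjusted p = 2.75e-09), higher in 9 of 9 glands. DOCK4, a regulator of small GTPases, was at 188 to 727 CPM against 44.3 to 122 CPM, and these ranges did not overlap (log2 fold change 2.48, adjusted p = 5.41e-10). The kinase LRRK2 rose by 2.61, the sodium-calcium exchanger SLC8A1 by 2.45 and ARHGAP22 by 2.43 on the log2 scale, all in 9 of 9 glands.

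Among called genes with a symbol that fell in every gland, those furthest below T-like nuclei were genes of T and NK cells. KLRK1, the activating receptor NKG2D, was at 0 to 50.9 CPM in gated nuclei and 162 to 1785 CPM in T-like nuclei (log2 fold change -5.41, SE 0.31, adjusted p = 2.87e-14). The adaptor SKAP1 (-5.13), the protease CTSW (-5.62) and CD96 (-4.96) fell too, without overlap of the glands. All 7 tested genes of the T and NK list fell, with a median of -4.56 against 0.02 over all genes tested. T-like nuclei were themselves gated on T cell genes, so this direction follows in part from that gate.

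Of the 26 B cell identity genes, 7 passed the filter on low counts, 4 rose against T-like nuclei and 1 fell (percent called 13.4 and 9.43 over all genes). The 4 were MEF2C, RALGPS2 (1.39), EBF1 (1.35) and BCL11A (1.03), and the 1 that fell was IKZF3 (-3.15, adjusted p = 1.19e-11). EBF1 had a median of 90.7 CPM in gated nuclei with a highest gland of 1674 CPM, L20 replicate 2, and without that gland its call was lost. CD22, BLK and MS4A1 did not pass the filter. BCL11A lost its call without any one of G90 replicate 1, L0 replicate 1, L20 replicate 2 and PI2 replicate 2.

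Of 18 genes of B cell receptor signalling, 14 were tested, 3 rose and 7 fell against T-like nuclei, beside 13.4% of all genes higher and 9.43% lower. Those that rose were LYN (1.56, adjusted p = 0.000859), SYK (1.42) and the adaptor BLNK (1.37), which is used in B cells and also in macrophages. BLNK lost its call without G90 replicate 1 or PI7 replicate 1. PIK3CD (-2.62) and PRKCB (-1.60) were among those that fell, genes that T cells share. PLCG2 was lost without L0 replicate 1 or PI2 replicate 1, and VAV3 without any one of the G90, L0 and PI2 glands. The plasma cell list had 5 of 30 genes tested, of which 2 rose, the elongation factor ELL2 (1.86) and CREB3L2 (1.63), a transcription factor of secretory cells, and 0 fell, beside the same shares of all genes.

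**Figure D4:**
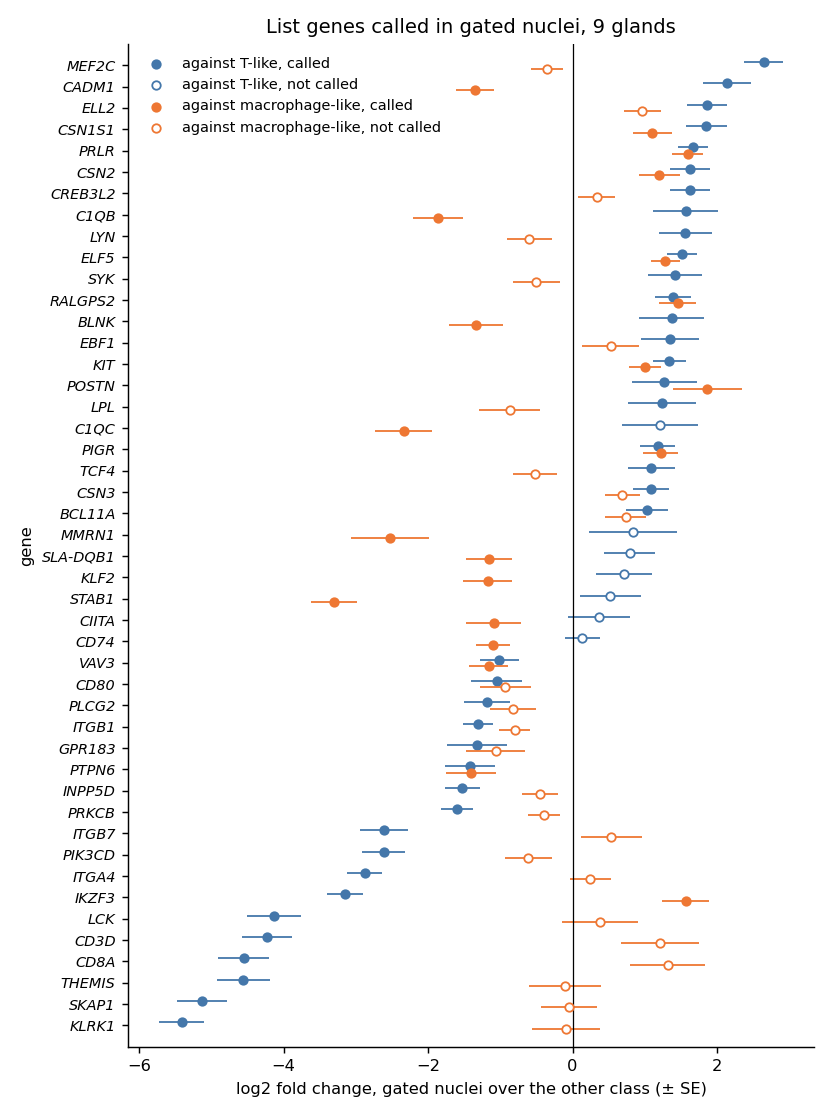
Log2 fold change with its SE (x axis) of list genes (y axis) called in either comparison and reported here, gated nuclei over T-like nuclei (blue) and over macrophage-like nuclei (orange), edgeR over 9 glands; filled points are called and open points are not. KLRK1 and SKAP1 are below -5 against T-like nuclei, and STAB1 at -3.30 is the lowest gene against macrophage-like nuclei.

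Against macrophage-like nuclei, 289 of 3996 genes were called (7.23%), with 122 higher (3.05%) and 167 lower (4.18%). DESeq2 called 311 (7.78%). The number of calls against the 2 classes was not compared by a test, and it is no measure of distance, since the summed UMIs differed. Macrophage-like and T-like nuclei had 15196 and 47640 UMIs in L0 replicate 2, but 2335111 and 153228 in L20 replicate 2. Among called genes with a symbol that rose in every gland, SEC16B, a gene of transport out of the endoplasmic reticulum, rose most. It was at 24.4 to 318.7 CPM in gated nuclei and 0 to 100 CPM in macrophage-like nuclei (log2 fold change 1.68, SE 0.31, adjusted p = 0.000377). PRLR, the prolactin receptor, rose by 1.59, RALGPS2 by 1.45, CD200 by 1.43 and the adhesion receptor ADGRG1 by 1.42 on the log2 scale, each in 9 of 9 glands. SEC16B was in 13.02% of gated nuclei and 21.7% of all other nuclei, so its rise was over macrophage-like nuclei and not over the gland. With no gland block 70 genes were called, and the calls of SEC16B, PRLR, CD200 and ADGRG1 were lost.

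STAB1, a scavenger receptor of macrophages, was at 0 to 69.97 CPM in gated nuclei and 126 to 686 CPM in macrophage-like nuclei (log2 fold change -3.30, adjusted p = 1.46e-08). The NADPH oxidase gene GP91-PHOX (-2.64), the transcription factor MAF (-2.50), EMILIN2 (-2.47) and the complement gene C1QC (-2.34) fell as well, each in 9 of 9 glands. All 3 tested genes of the macrophage list fell. One of them, C1QB, was at the same time higher in gated than in T-like nuclei (1.56, adjusted p = 0.00654), so gated nuclei lay between both classes for this gene. The gene counts and direction here are shaped by the gate on macrophage genes.

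B cell genes were then read against macrophage-like nuclei. Of the 7 tested identity genes, RALGPS2 and IKZF3 (1.57, adjusted p = 0.00137) rose, which is 2 of 7 beside 3.05% of all genes, and 0 fell. MEF2C differed by -0.35 (adjusted p = 0.331). Among the signalling genes reported here, BLNK (-1.34), VAV3 (-1.16) and the phosphatase PTPN6 (-1.40) fell, beside 4.18% of all genes lower. SYK differed by -0.50 (adjusted p = 0.346) and LYN by -0.60 (adjusted p = 0.220). VAV3 lost its call without G90 replicate 2. Of the plasma cell list, 0 of 5 tested genes were called, with CREB3L2 at 0.33 and ELL2 at 0.97.

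Some MHC class II genes were lower than in macrophage-like nuclei. Of 5 tested 3 fell, beside 4.18% of all genes, CD74 (-1.10, adjusted p = 0.00148), SLA-DQB1 (-1.16, adjusted p = 0.0122) and the class II transactivator CIITA (-1.09, adjusted p = 0.0494). CD74 was at 139 to 1184 CPM in gated nuclei and 426 to 1855 CPM in macrophage-like nuclei, and lower in 9 of 9 glands. Without PI2 replicate 2 the calls of CD74, SLA-DQB1 and CIITA were lost, and that of CIITA was lost also without G90 replicate 2 or PI2 replicate 1. Against T-like nuclei CD74 differed by 0.13 (adjusted p = 0.709), and CD80, a co-stimulatory ligand, was the only class II list gene called there (-1.05), a call lost without G90 replicate 2, L20 replicate 2 or either L0 gland.

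The homing receptors of the list did not rise in either comparison. Against T-like nuclei 4 of 5 tested fell, beside 9.43% of all genes, namely the integrin genes ITGA4 (-2.88), ITGB7 (-2.61) and ITGB1 (-1.31) and the oxysterol receptor GPR183 (-1.32). ITGA4 and ITGB7 together make the integrin that guides lymphocytes to mucosal tissue. Against macrophage-like nuclei 1 of 5 fell, beside 4.18%, KLF2 (-1.17, adjusted p = 0.0164), which lost its call without G90 replicate 1 or PI7 replicate 2. CCR10, the receptor for CCL28, had a UMI in the gated nuclei of 1 gland only, L0 replicate 1.

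Milk and epithelial genes rose in gated nuclei against both immune classes. All 3 classes had been gated to lack EPCAM. Against T-like nuclei 5 of 5 tested genes of the epithelial list rose, beside 13.4% of all genes, and against macrophage-like nuclei 4 of 5, beside 3.05%. The summed level of the list in gated nuclei, 3173 CPM, was below the 5226 CPM of all other nuclei, with gland medians of 2415 and 2673 CPM. CSN2 was at 0 to 2517 CPM over the 9 glands in gated nuclei, with 2517 in G90 replicate 2 and 1217 and 1566 at L0, while L20 replicate 2, PI2 replicate 1 and PI7 replicate 2 were at 0. Its log2 fold change was 1.63 against T-like (adjusted p = 3.07e-05) and 1.20 against macrophage-like nuclei (adjusted p = 0.00419), and the second call was lost without G90 replicate 1. Without that gland CSN1S1 against macrophage-like and CSN3 against T-like nuclei were lost too, and CSN1S1 also without L0 replicate 2. PIGR rose by 1.18 (adjusted p = 0.000205) and 1.22 (adjusted p = 0.000922), in 9 of 9 glands each time. In gated nuclei PIGR was at 140 CPM and in all other nuclei at 192 CPM. The part of free epithelial RNA in these differences was not tested.

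Within the gated nuclei, those with JCHAIN were compared with those without, in the 4 glands with at least 10 nuclei of each kind. JCHAIN-positive and JCHAIN-negative nuclei numbered 68 and 44 in G90 replicate 1, 31 and 13 in G90 replicate 2, 109 and 40 in L20 replicate 2, and 358 and 58 in PI7 replicate 1. By the rule, a JCHAIN-negative gated nucleus held 2 B cell markers. Of 2415 genes tested, 2 were called (0.0828%), 1 higher and 1 lower (0.0414% each), and 0 genes of the B cell, plasma cell or MHC class II lists were among them. MS4A1, a gene of the rule, was left out of these calls. Over all glands it was in 6 of 173 JCHAIN-negative gated nuclei (3.47%). With 1, 2 and 3 or more JCHAIN UMIs it was in 1 of 525, 1 of 163 and 1 of 191, a difference that was not tested. JCHAIN-positive nuclei had less of IL1RAPL2, an accessory protein of the interleukin-1 receptor family, at 10.6 to 76.6 CPM against 193 to 322 CPM (log2 fold change -2.01, adjusted p = 0.0347), and more of an unnamed gene, ENSSSCG00000037775 (2.76). The IL1RAPL2 call was lost without G90 replicate 1, G90 replicate 2 or L20 replicate 2, each left out in turn.

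SYK had a log2 fold change of -1.61 (SE 0.42, adjusted p = 0.125) and LYN of -1.19 (adjusted p = 0.239) in JCHAIN-positive nuclei, each lower in 4 of 4 glands. The 11 tested signalling genes had a median of -0.85 against 0.00 over all genes. By the rule, JCHAIN-negative gated nuclei held at least 2 of BANK1, PAX5 and CD79B, and JCHAIN-positive ones needed fewer of them. These directions thus follow in part from the choice of nuclei. The 5 tested plasma cell genes had a median of 0.54, with HERPUD1 at 0.54 (adjusted p = 0.788), and none of these single genes passed the threshold.

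The JCHAIN-only nuclei, outside the rule, were also set against JCHAIN-negative gated nuclei in the same 4 glands. Of 2607 genes 38 were called (1.46%), 7 higher (0.269%) and 31 lower (1.19%) in JCHAIN-only nuclei. DESeq2 called 35 (1.34%). SLC15A2 was at 172 to 324 CPM in JCHAIN-only nuclei and 0 to 43.0 CPM in JCHAIN-negative gated nuclei (log2 fold change 3.75, SE 0.54, adjusted p = 0.000323). The glands did not overlap. JCHAIN UMIs chose both sides, at least 3 against 0, so rises of genes that go with JCHAIN follow in part from that choice. SLC15A2 had 8 UMIs in all 173 JCHAIN-negative gated nuclei, so its fold change rests on few UMIs on that side. EDEM3, which trims misfolded glycoproteins for disposal, was at 157 to 577 against 53.7 to 143 CPM (2.25, adjusted p = 0.00215). HERPUD1, a protein of endoplasmic reticulum quality control, was at 209 to 308 against 0 to 114 CPM (1.71, adjusted p = 0.0255), and CADPS2, of vesicle release, rose by 1.29.

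Both of the genes with the largest rise carried no symbol, ENSSSCG00000037775 (4.91) and ENSSSCG00000036224 (4.14). HERPUD1 was the only called gene of the 6 plasma cell genes tested. Its call and that of CADPS2 were lost without G90 replicate 1, L20 replicate 2 or PI7 replicate 1, and that of EDEM3 without PI7 replicate 1. SLC15A2 kept its call without each gland in turn. With no gland block, 0 genes were called.

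Among the genes lower in JCHAIN-only nuclei were genes of receptor signalling. By the rule, JCHAIN-negative gated nuclei held at least 2 of BANK1, PAX5 and CD79B and JCHAIN-only nuclei none of them, so these directions follow in part from the choice of nuclei. ZEB2 was at 14.95 to 375 CPM in JCHAIN-only and 107 to 1661 CPM in JCHAIN-negative gated nuclei (-2.45, adjusted p = 4.76e-05), lower in 4 of 4 glands. ARHGAP24 (-2.70), IL1RAPL2 (-2.55), SLC8A1 (-2.22) and PIK3AP1 (-2.18), an adaptor of B cell and myeloid receptors, also fell. Of 10 tested signalling genes 5 fell, PIK3AP1, SYK (-1.67, adjusted p = 0.0175), LYN (-1.65), INPP5D (-1.47) and PRKCB (-1.31), beside 1.19% of all genes lower. SYK, LYN and INPP5D lost their calls without G90 replicate 1 or L20 replicate 2, PRKCB without G90 replicate 1 or PI7 replicate 1, and IL1RAPL2 and PIK3AP1 without L20 replicate 2. MERTK and CTSS, genes of phagocytes, were among the called genes too (-1.58 and -1.76) and were picked after their values were seen.

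The share of gated nuclei by stage was asked next, since involution is described as a time of immune activity (plot of shares by gland). Gated nuclei made up 0.977% and 0.235% of the nuclei of the G90 glands, 0.915% and 0.361% in L0, 0.487% and 0.972% in L20, 0.225% and 0.340% in PI2, and 2.49% and 0.685% in PI7. PI7 replicate 1 was highest, and at G90, L0, L20 and PI7 the 2 sows lay far apart. The excluded genes removed unequal parts of the glands. They left 5428 of 15323 nuclei in L20 replicate 2 and 7449 of 9413 in L0 replicate 2. With no condition on these genes the share was 7.44% in PI7 replicate 1, 4.05% in L20 replicate 2 and 2.90% in PI7 replicate 2. It was 0.530% to 2.36% in the other glands. The part of the exclusion in the gland differences was not tested.

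**Figure D5:**
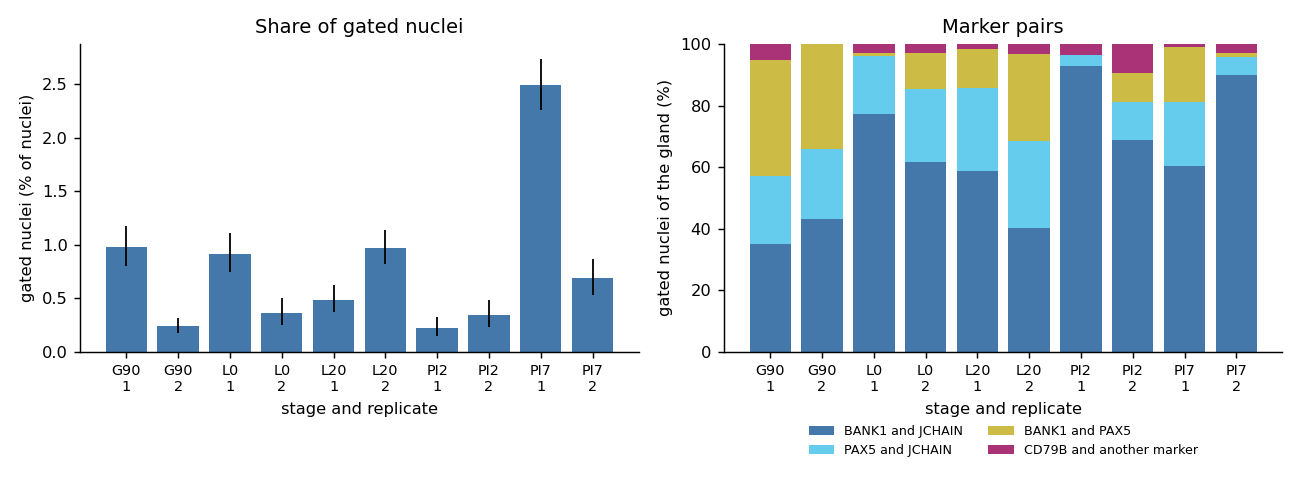
Left, gated nuclei as a percent of the nuclei of each gland (y axis, from 0) with 95% exact intervals; right, the marker pair by which the gated nuclei of each gland met the rule (y axis, % of gated nuclei). PI7 replicate 1 is at 2.49% and the other 9 glands lie between 0.225% and 0.977%; BANK1 with PAX5 is absent or rare in L0 replicate 1, PI2 replicate 1 and PI7 replicate 2.

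The 5 stages accounted for 46.6% of the variance of the share (exact permutation test over all splits into pairs, p = 0.403, adjusted p = 0.886). The mean was 0.936% ± 1.06 (SD, n = 4) in involution and 0.684% ± 0.305 (SD, n = 4) in lactation, a difference of 0.252 percentage points (exact two-sided permutation test over 70 splits, p = 0.886, where the smallest p possible is 0.0286). Lactation differed from the 6 other glands by -0.142 points (exact two-sided permutation test over 210 splits, p = 0.881). Adjusted over the 3 tests, both p-values were 0.886. Without PI7 replicate 1 the differences turned to -0.267 and 0.192 points, so the direction rested on 1 sow.

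The shares were computed again at 1 depth. With each nucleus thinned to 1000 UMIs, and shallower nuclei left out, 100261 of the 127926 nuclei remained and 415 met the rule. The share was 1.60% in PI7 replicate 1, 0.558% in PI7 replicate 2, and between 0.0816% and 0.484% in the other 8 glands, and stages then took 66.6% of the variance (exact permutation test, p = 0.0603, against p = 0.403 unthinned). The part of depth in the gland differences was not tested further.

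The markers themselves varied by gland over all nuclei, not only in the gated ones. PAX5 was in 5.33% of all nuclei of G90 replicate 1, 6.44% of L20 replicate 2 and 5.596% of PI7 replicate 1, and in 0.457% to 1.66% of the other 7 glands. In those 3 glands it was also raised in EPCAM-positive nuclei, at 5.02%, 5.46% and 4.65%. BANK1 was in 16.9% of all nuclei of L20 replicate 2, 16.8% of PI7 replicate 1 and 2.49% to 9.64% of the others. JCHAIN ranged from 5.97% of nuclei in G90 replicate 2 to 27.8% in PI7 replicate 1. The 3 glands with the most gated nuclei, PI7 replicate 1, L20 replicate 2 and G90 replicate 1, were the 3 with the most PAX5 in all nuclei. The part of these levels in the share of gated nuclei was not tested.

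The makeup of the gated nuclei also differed between glands. JCHAIN was in 60.7% and 70.5% of the gated nuclei of the G90 glands, 99.0% and 85.3% for L0, 88.9% and 73.2% for L20, 100% and 87.5% for PI2, and 86.1% and 98.6% for PI7. The lowest shares were at G90, replicates 1 and 2, and at L20 replicate 2. JCHAIN-only nuclei, outside the rule, were 0.193% to 2.19% of the nuclei of a gland, with L0 replicate 1 highest and G90 replicate 2 lowest, and so ordered the glands differently from the gated nuclei.

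Gene levels of gated nuclei were compared between adjacent stages, with 2 glands against 2, in 1 edgeR fit over the 10 glands. Of 5585 genes, 0 were called in L0 against G90, L20 against L0, PI2 against L20 and PI7 against PI2, and 0 in involution against lactation (percent called 0 each time). At an unadjusted p under 0.05 there were 587, 694, 279, 282 and 666 genes. DESeq2 called 40 (0.716%), 73 (1.31%), 0, 1 (0.0179%) and 41 (0.734%). The lowest adjusted p of the edgeR fit were 0.119, 0.0989, 0.878, 0.929 and 0.134.

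Plasma cell genes at these stages had the following values. IRF4 in gated nuclei was at 3.63 and 0 CPM at G90, 52.4 and 43.5 CPM at L0, 38.3 and 95.2 CPM at L20, 141 and 159 CPM at PI2 and 38.3 and 25.5 CPM at PI7. The G90 glands were thus lower than the other 8, and in L0 against G90 46.4% of all genes had no overlap between the stages. The G90 values rest on 1 UMI in all, so no fold change is given for L0 against G90 (adjusted p = 0.231). SLC15A2 was at 21.8 and 49.0 CPM at G90, 85.1 and 217 CPM at L0, 38.3 and 129 CPM at L20, 125 and 286 CPM at PI2 and 101 and 44.5 CPM at PI7. The sows overlapped between L0 and L20 and between L20 and PI2, and not between G90 and L0 or between PI2 and PI7. ELL2 had the lowest unadjusted p of the list genes in involution against lactation, at 62.5 to 178 CPM against 260 to 855 CPM (log2 fold change -2.07, SE 0.40, adjusted p = 0.134), and 4.40% of all genes had no overlap there.

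HLA-DRA, CD74 and CSF1R, picked after their values were seen, were read over the stages. HLA-DRA in gated nuclei was at 518 and 401 CPM at PI7, 203 and 0 CPM at PI2, 76.6 and 123 CPM at L20, 26.2 and 58.0 CPM at L0 and 163 and 24.5 CPM at G90. CD74 was at 1184 and 725 CPM at PI7 and between 139 and 535 CPM in the other 8 glands. CSF1R was at 211 and 401 CPM at PI7 and 0 to 141 CPM elsewhere. In PI7 against PI2, CD74 had a log2 fold change of 1.34 (adjusted p = 0.929) and CSF1R of 2.11 (adjusted p = 0.929). No gene was called in this comparison, and 33.3% of all genes had no overlap between PI7 and PI2.

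The niche genes of antibody secretion were read from the same nuclei. CCL28 was at 105 and 98.1 CPM at G90, 105 and 377 CPM at L0, 0 and 28.0 CPM at L20, 31.3 and 0 CPM at PI2 and 4.64 and 44.5 CPM at PI7. L20 against L0 gave a log2 fold change of -3.68 for CCL28 (SE 1.09, adjusted p = 0.193). CSN1S1, a casein gene, was at 4277 to 4686 CPM at L0 and 11.2 to 184 CPM at L20 (-5.65, adjusted p = 0.120). The adipogenic factor PPARG was at 0 to 3.27 CPM at L0 and 23.0 to 465 CPM at L20 (adjusted p = 0.128), and its L0 values rest on 1 UMI, so no fold change is given. In this comparison 43.4% of all genes had no overlap. The part of free RNA was not tested.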

How the data were processed

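Single-nucleus libraries of 10 glands were made with the GEXSCOPE kit. The authors deposited whole UMI counts per gene and barcode, produced by CeleScope v1.1.7 with the Sscrofa11.1 genome. They had not been normalized, and neither doublets nor free RNA had been taken out. Which annotation release was used: not given in the sources used here. Total UMIs were 18962138 to 53165191 per gland. Of 28711 gene identifiers, 15457 had a symbol and 639 took one from the reference.

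The gate members, gene lists and tests were chosen with earlier results of these data known. UMIs were summed per gland and class with at least 10 nuclei and tested with edgeR 4.0.16 (quasi-likelihood, TMM, filterByExpr) in R 4.3.3, with Benjamini-Hochberg adjustment over all genes tested. The class comparisons took the gland as a block, a pairing that comes from the nuclei themselves. Shares were tested by exact permutation over glands (scipy 1.17.1). Scripts were tested on simulated data. Genes named were the 12 genes of the rule, the list genes that counts turn on, and the 5 called genes with the largest change in each direction that agreed in every gland. Leading genes by fold had a UMI in at least 5% of the nuclei of a class. Some names outside this were picked after values were seen.

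Alternatives were DESeq2 1.42.0 as a test and as size factors, no filter on low counts, at least 30 nuclei, no gland block, the replicate number as a block, 3 markers, no JCHAIN, no excluded genes, at least 500 genes with at most 5% mitochondrial UMIs, thinning to 1000 UMIs, and each gland left out. Doublets scored by Scrublet (scanpy 1.11.5) were left out in another. Its own threshold marked under 0.5% of nuclei in 8 glands, where the top 6% by score were taken, and 3.88% and 4.07% in the others. MS4A1 by identifier, shared barcodes left out, and pooled values without PI7 replicate 1 were added after seeing the data. Spatial sections and milk cells were not used here. Authors' own comparison tables were not used. A few genes are not reported here, in the text or the plots.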

Additional observations from a re-analysis of the deposited data

Results flagged for a closer look

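Of 103 groups of gland values tested, 6 had a highest or lowest gland that stood apart from the others by Dixon's test, where chance flags about 1 in 20. PAX5 was in 6.44% of all nuclei of L20 replicate 2, the highest of the 4 lactation glands. The other 5 are log2 differences per gland between gated nuclei and another class, with 10 CPM added before log2. ITGB7 (-4.78) and ITGA4 (-5.76) against T-like nuclei were lowest in PI2 replicate 1. CREB3L2 against T-like nuclei was highest in L0 replicate 2 (4.84), and so was SEC16B against macrophage-like nuclei (4.31). CSN2 against macrophage-like nuclei was highest in G90 replicate 1 (2.78), the gland without which its call was lost.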

How the results depend on the processing

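The 3 shares kept their side of the threshold under each alternative gate. With each gland left out, the variance taken by stage ran from 30.4% to 86.5%, involution minus lactation from -0.267 to 0.489 points, and lactation minus the others from -0.262 to 0.192 points. The sign turned without PI7 replicate 1 (-0.267 and 0.192). With the replicate number as a block, the exact permutation p were 0.333, 0.889 and 0.860. Replicate numbers did not pair the glands, since correlations of the difference between replicates 1 and 2 ran from -0.283 to 0.169 over pairs of stages.

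Called genes against T-like nuclei, against macrophage-like nuclei, JCHAIN-positive against negative, and JCHAIN-only against negative numbered 1639, 541, 21 and 77 with no filter on low counts, which tested more genes. The 5 stage comparisons then gave 81, 156, 2, 13 and 98. With DESeq2, 4 of the 5 gave 40, 73, 1 and 41. With no gland block, 70 were called against macrophage-like nuclei, and 0 in both JCHAIN comparisons. With at least 30 nuclei, JCHAIN-positive against negative gave 1, JCHAIN-only 111 and L20 against L0 1, and with doublets left out JCHAIN-positive against negative gave 5. With each gland left out the class counts ran from 787 to 969, 247 to 313, 1 to 9 and 12 to 111, and the stage counts from 0 to 38, 0 to 167, 0 to 0, 0 to 0 and 0 to 95. The cause was not tested.

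Of 89 named or called list genes, 41 kept their call in every alternative run and 0 reversed. No gland block ended 46 calls. The stage comparisons rest on 2 sows a stage, and the gate mostly on 1 UMI per marker.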
